A study of Mus musculus with 8 samples.

Results

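Glial cell line-derived neurotrophic factor (GDNF) and its relatives were followed in the postnatal mouse testis through 9 genes. They comprise the ligands Gdnf and Nrtn, the receptors Gfra1, Gfra2, Gfra3, Gfra4 and Ret, and the targets Etv5 and Bcl6b. These genes were chosen with earlier results of these data known. Their probes were then taken by gene name alone, as all non-control probes on the array that carry one of these names. The members made up 13 of 41174 probes, and 9 of 27962 gene names. RNA came from whole testes at postnatal day 8, from 4 wild type and 4 VRK1-deficient mice with 1 array per sample. VRK1 (vaccinia-related kinase 1) is a chromatin-associated serine/threonine kinase. The VRK1-deficient allele is a gene trap, a beta-geo cassette in intron 3 of Vrk1, from 1 embryonic stem cell line. It is hypomorphic, since some full-length transcript is still made, and it is carried by all cells of the animal, germ cells and somatic cells alike. Per the study's methods, it was bred onto C57BL/6 by repeated backcrossing. The labels give no other allele or agent for either group.

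GDNF is made by Sertoli cells, the supporting cells inside the seminiferous tubule, and by the peritubular myoid cells around it. It binds GFRA1, a receptor without a kinase domain that is tethered to the surface of undifferentiated spermatogonia, and the pair engages the receptor tyrosine kinase RET. Signalling through RET, SRC family kinases, PI3K and ERK keeps spermatogonial stem cells self-renewing. Etv5, an ETS transcription factor, and Bcl6b, a transcriptional repressor, are among the genes that GDNF induces in cultured spermatogonia. The other receptors have their own preferred ligands: neurturin (Nrtn) binds GFRA2, artemin binds GFRA3 and persephin binds GFRA4.

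Each array probe is a DNA oligo of 60 bases. The probes for Nrtn, Gfra1, Gfra2 and Gfra4 printed here show what was measured for a ligand and for 3 related receptors. Coordinates were taken from the array files (mouse build mm7), and these state no strand. The spans of the receptor probes (767, 1124 and 600 bases) exceed the probe length, so each crosses at least 1 exon junction and reads spliced transcript. No part of a probe is singled out, so all letters are in lower case, 5′ to 3′.
Nrtn probe A_52_P463968, chr17:54962655-54962714: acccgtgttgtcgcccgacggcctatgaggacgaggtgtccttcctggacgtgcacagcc
Gfra1 probe A_52_P311022, chr19:58154603-58155369: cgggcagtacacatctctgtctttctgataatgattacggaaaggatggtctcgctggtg
Gfra2 probe A_51_P321972, chr14:65623101-65624224: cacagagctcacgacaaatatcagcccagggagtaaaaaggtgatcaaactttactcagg
Gfra4 probe A_52_P409839, chr2:130781276-130781875: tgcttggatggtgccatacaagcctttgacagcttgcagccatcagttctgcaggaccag
Among the 12 member probes compared with each other, the longest run of bases shared by any of 66 pairs was 9. The GC content was 65.0% in the Nrtn probe, 48.3% in the Gfra1 probe, 45.0% in the Gfra2 probe and 53.3% in the Gfra4 probe.

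The promoters of Gdnf and Etv5 are printed because Gdnf heads the pathway and Etv5 is one of its transcriptional targets. The RefSeq promoter table (build GRCm38.p6) held 8 start sites for 5 of the 9 members. The 250 bases before the first start site are shown, read in the direction of transcription. Capitals mark matches on either strand to TATAAA (the TATA box core) and TGACG (the core of the cAMP response element) in Gdnf, and to CCAAT (the CCAAT box) in Etv5.
Gdnf, plus strand, chr15:7809798-7810047: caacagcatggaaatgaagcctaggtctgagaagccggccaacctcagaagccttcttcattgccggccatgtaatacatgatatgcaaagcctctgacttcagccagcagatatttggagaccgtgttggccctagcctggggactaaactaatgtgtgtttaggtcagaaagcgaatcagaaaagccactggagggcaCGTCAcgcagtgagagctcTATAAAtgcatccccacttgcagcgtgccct
Etv5, minus strand, chr16:22439571-22439820: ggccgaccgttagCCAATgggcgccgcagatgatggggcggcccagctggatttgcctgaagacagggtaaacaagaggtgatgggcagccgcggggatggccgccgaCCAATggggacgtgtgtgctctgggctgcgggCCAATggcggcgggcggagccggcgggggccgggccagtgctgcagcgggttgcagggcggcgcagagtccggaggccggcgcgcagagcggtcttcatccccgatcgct
In Gdnf, the TATAAA match began 31 bases and the TGACG match 50 bases before the start. In Etv5, the CCAAT matches began 237, 142 and 110 bases before the start, and no TATAAA was found in this window. Of 32851 mouse promoters, 12.4% held TATAAA, 17.8% held TGACG and 33.8% held CCAAT in the same 250 bases. The ETS core CCGGAAG, present in 6.91% of promoters, was not found in the windows of the 8 member start sites. These matches are descriptions of the sequence, and no binding was measured.

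All levels are log2 of the processed signal minus the log2 of the array's 75th percentile and are called levels from here on. Levels of different probes are not comparable with each other. The 75th percentile lay between 642 and 851 signal units in wild type and between 548 and 745 in VRK1-deficient arrays, and 63.6% to 69.5% of spots on an array were well above background. The limma fit covered 26948 probes, those well above background on 4 or more arrays. The log2 change is VRK1-deficient minus wild type, and a probe was called at a Benjamini-Hochberg adjusted p under 0.05 over all tested probes. Vrk1 itself was called with both of its probes, with log2 changes of -4.00 (SE 0.21, limma adjusted p = 0.000135) and -3.93 (SE 0.15, adjusted p = 2.09e-05). The 8 arrays lay on 2 slides with 2 arrays of each genotype. On both slides, wild type took positions 1 and 2 and VRK1-deficient took positions 3 and 4, so position and genotype cannot be told apart. Wild type replicate 1 stood apart. Over all tested probes, it correlated at 0.987 to 0.990 with the mutant arrays and at 0.970 to 0.986 with the other wild type arrays, although its Vrk1 signal of -0.20 was at the wild type level. Changes of the members and counts of the lists are therefore given with and without this array. It was singled out from these same data for its likeness to the mutant arrays. Leaving it out therefore favours larger differences and smaller p-values across the array. Those fits show how far results rest on this array and are not independent support for a change. With 4 arrays per genotype, precision is limited by their number.

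Across the family, the 9 genes fell into 4 patterns. Gdnf, Gfra1, Etv5 and Bcl6b had higher mean signals in VRK1-deficient testes, by 1.27- to 2.25-fold. Nrtn and Gfra3 had lower mean signals, 52.7% and 41.3% of wild type. The 3 Gfra4 probes stood at 92.0% to 94.1% of wild type. Ret and Gfra2 were not well above background.

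Of 11 tested member probes for 7 genes, 1 was called, the Bcl6b probe, which was higher. By the same rule 3.66% of all tested probes were called, and 1.67% were called as higher. At an unadjusted p under 0.05, 7 of the 11 member probes passed, against 28.8% of all tested probes. For 4 of the 11 member probes the ranges of both genotypes were separate, against 16.7% of all tested probes. These were 3 higher probes (Gfra1, Etv5 and Bcl6b), against 9.4% of all tested probes, and 1 lower probe (Nrtn), against 7.31%. The median log2 change was 0.34 over the member probes and 0.04 over all tested probes. Without wild type replicate 1, 7 of the 11 member probes for 6 genes were called, while 28.4% of all tested probes were called as well.

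**Figure D1:**
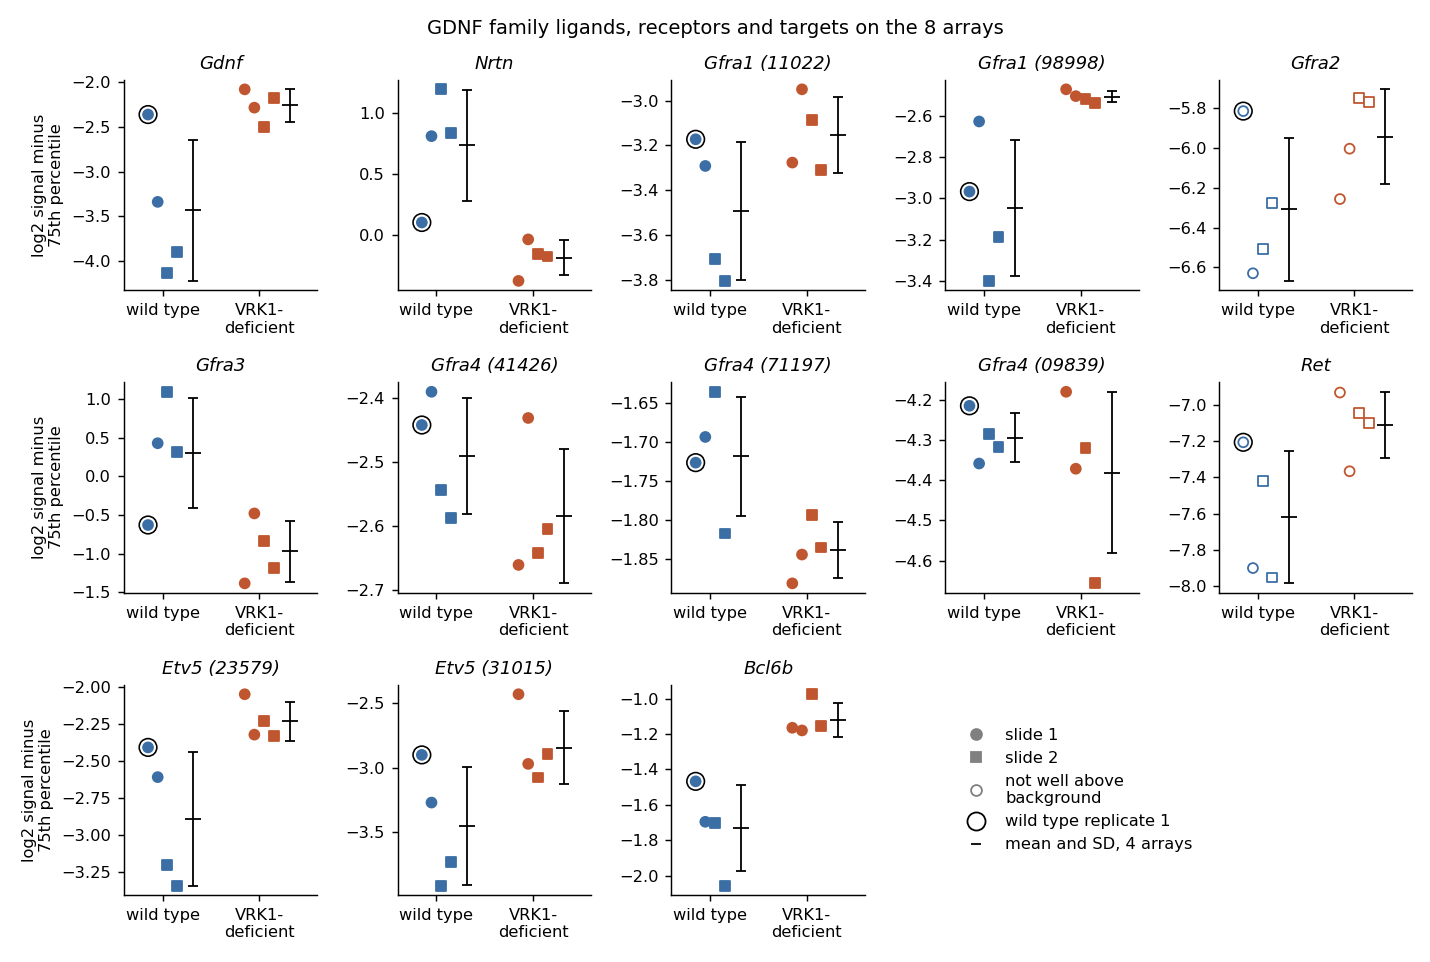
Log2 signal minus the array's 75th percentile (y axis, a separate scale per panel) for each of the 13 member probes in wild type (blue) and VRK1-deficient (orange) arrays; where a gene has several probes, the last 5 digits of the probe name are given, and bars are the mean and SD of 4 arrays. For Gdnf, the ringed wild type replicate 1 lies at -2.36, among the mutant arrays, and the other wild type arrays lie between -4.13 and -3.34.

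Gdnf, the ligand of GFRA1, was measured by 1 probe. Its log2 signal on wild type replicates 1 to 4 was -2.36, -3.34, -4.13 and -3.90. On VRK1-deficient replicates 1 to 4 it was -2.08, -2.29, -2.50 and -2.18. The mutant arrays lay close together (SD 0.18, n = 4) and the wild type arrays were spread (SD 0.79, n = 4). All mutant arrays were above 3 of the wild type arrays, and wild type replicate 1 lay inside the mutant range. The change of 1.17 (SE 0.34, 95% interval 0.41 to 1.94), a 2.25-fold higher mean, had a limma adjusted p of 0.0728 and was not called. With wild type replicate 1 left out, the change was 1.53 with a limma adjusted p of 0.00351, and over all alternatives the adjusted p ranged from 0.00351 to 0.528. The change was 0.67 on slide 1 and 1.68 on slide 2.

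Nrtn, which encodes the GFRA2 ligand neurturin, showed the opposite direction. Its log2 signal was 0.10, 0.81, 1.20 and 0.84 in wild type and -0.38, -0.04, -0.16 and -0.18 in VRK1-deficient testes. The lowest wild type array, replicate 1, was still above all 4 mutant arrays. The log2 change was -0.92 (SE 0.21, 95% interval -1.41 to -0.44). With a limma adjusted p of 0.0504 it missed the threshold narrowly. It was -1.14 without wild type replicate 1 (limma adjusted p = 0.00344; 0.00344 to 0.507 over all alternatives), -0.66 on slide 1 and -1.18 on slide 2.

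Gfra1, the co-receptor for GDNF on undifferentiated spermatogonia, was measured by 2 probes. Probe A_52_P398998 gave -2.97, -2.63, -3.40 and -3.19 in wild type and -2.47, -2.50, -2.52 and -2.54 in VRK1-deficient testes. Its arrays did not overlap between genotypes, and the mutant arrays had an SD of 0.03. The change was 0.54 (SE 0.16, 95% interval 0.17 to 0.90, limma adjusted p = 0.0776). It was 0.57 without wild type replicate 1, with a limma adjusted p of 0.0444 in a range of 0.0444 to 0.540 over all alternatives.

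The junction-spanning Gfra1 probe A_52_P311022, whose sequence is given above, gave -3.17, -3.29, -3.71 and -3.81 in wild type. In VRK1-deficient testes it gave -3.28, -2.95, -3.08 and -3.31, and the genotypes overlapped. Its change of 0.34 (SE 0.17, 95% interval -0.04 to 0.72) had a limma adjusted p of 0.216, and 0.0658 without wild type replicate 1. Both probes gave positive values, and their mean gave 0.44 with a limma adjusted p of 0.0998.

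Ret, the kinase that transmits the signal of all 4 GFRA receptors, could not be compared. Its probe is spotted 10 times on each array, and of 80 spots in all, 1 was well above background, on wild type replicate 1. The signals of these spots ran from 2.06 to 15.1 units in wild type and from 2.36 to 10.6 units in VRK1-deficient testes. Of these, 1 spot was marked as an outlier on its array and left out. Gfra2, the neurturin receptor, was likewise not well above background on any array, with signals of 7.05 to 11.9 units in wild type and 9.48 to 11.6 units in VRK1-deficient testes. For both genes no fold is given.

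Gfra3, the artemin receptor, had the largest negative change of the family. It is expressed mainly in peripheral neurons and their precursors. Its log2 signal was -0.63, 0.43, 1.10 and 0.31 in wild type and -1.39, -0.48, -0.84 and -1.18 in VRK1-deficient testes. Wild type replicate 1 overlapped the mutant arrays, and the other wild type arrays lay above all of them. The change was -1.28 (SE 0.34, 95% interval -2.05 to -0.50), and the limma adjusted p was 0.0629. Leaving out wild type replicate 1 gave -1.59 with a limma adjusted p of 0.00547, in a range of 0.00547 to 0.546 over all alternatives. It was -0.83 on slide 1 and -1.72 on slide 2.

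Gfra4, the persephin receptor, was measured by 3 probes, and none was called. The levels varied little, with wild type SDs of 0.06 to 0.09 and mutant SDs of 0.04 to 0.20. The changes were -0.09 (95% interval -0.34 to 0.15) for probe A_51_P241426, -0.12 (-0.34 to 0.10) for A_52_P171197 and -0.09 (-0.37 to 0.19) for A_52_P409839. The limma adjusted p-values were 0.583, 0.430 and 0.663. After normexp background correction, A_51_P241426 gave 0.07 and A_52_P409839 gave 0.19, so the sign of these small values depended on the background correction. With wild type replicate 1 left out, the changes were -0.08, -0.12 and -0.06. The intervals for all arrays reach down to -0.37 and up to 0.19, and a p above the threshold does not show equal levels.

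Etv5, an ETS transcription factor induced by GDNF, was measured by 2 probes that gave nearly the same change. Probe A_51_P323579 read -2.41, -2.61, -3.20 and -3.34 in wild type and -2.05, -2.32, -2.23 and -2.33 in VRK1-deficient testes. All mutant arrays lay above all wild type arrays. The change was 0.66 (SE 0.21, 95% interval 0.18 to 1.13, limma adjusted p = 0.0892), and 0.82 without wild type replicate 1 (limma adjusted p = 0.0146; 0.0146 to 0.529 over all alternatives).

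Probe A_52_P631015 for Etv5 read -2.90, -3.27, -3.92 and -3.73 in wild type and -2.43, -2.97, -3.08 and -2.90 in VRK1-deficient testes. Here the genotypes overlapped through wild type replicate 1. The change was 0.61 (SE 0.24, limma adjusted p = 0.133) with all arrays. With that replicate left out it was 0.80 (limma adjusted p = 0.0227; 0.0227 to 0.577 over all alternatives), and the mean of both probes gave 0.63 with a limma adjusted p of 0.0987.

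Bcl6b, a transcriptional repressor that supports spermatogonial self-renewal, was the member that passed the test. Its log2 signal was -1.47, -1.70, -1.70 and -2.06 in wild type and -1.17, -1.18, -0.98 and -1.16 in VRK1-deficient testes. All mutant arrays lay above all wild type arrays. Bcl6b rose by 0.61 on the log2 scale (SE 0.14, 95% interval 0.30 to 0.93), or 1.53-fold, with a limma adjusted p of 0.0497. With slide as a block the change was the same and the limma adjusted p was 0.0544, so the call was lost. It was also lost when any array other than wild type replicate 1 was left out (limma adjusted p = 0.0735 to 0.150), and it held without that array (0.70, adjusted p = 0.00763). The change was 0.41 on slide 1 and 0.81 on slide 2, and over all alternatives the adjusted p ranged from 0.00763 to 0.500.

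**Figure D2:**
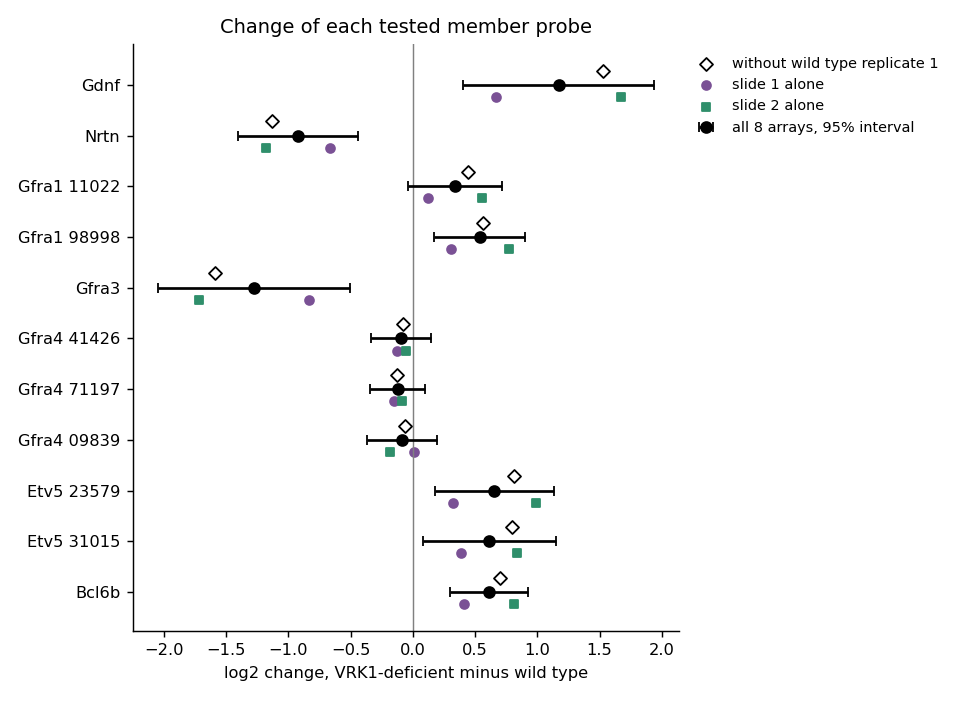
Log2 change (x axis, VRK1-deficient minus wild type) of the 11 tested member probes, with the 95% interval of the limma fit to all 8 arrays (black) and, as points, the change without wild type replicate 1 and on each slide alone. Gdnf, Gfra1, Etv5 and Bcl6b lie right of 0 and Nrtn and Gfra3 left of it in all 4 fits, and for these genes slide 2 gave the larger change.

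For the probes of Gdnf, Nrtn, Gfra1, Gfra3, Etv5 and Bcl6b, the change was larger on slide 2 than on slide 1. Wild type replicate 1 lay on slide 1. The difference between slides was not tested.

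The 5 genes whose centred profiles over the 8 arrays lay closest to that of Gdnf were Rnf207, Arhgef4, 4930486L24Rik, Vsnl1 and LOC240444, among 17935 genes compared. The closest was Rnf207, at a Euclidean distance of 0.34, while the distance of Gdnf from a flat profile was 2.17. Their log2 changes ranged from 0.87 to 1.33. Of these, 4930486L24Rik (1.22, limma adjusted p = 0.0494) and Vsnl1 (1.33, adjusted p = 0.0492), which encodes a neuronal calcium sensor, were called. This is a description of likeness over 8 arrays that share their genotype contrast.

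Genes around the members were read from 5 lists with 77 entries, 1 probe per gene. Of 66 that were tested, 3 were called as higher and 2 as lower. Over all 17939 genes tested in this way, 1.88% were called as higher and 2.21% as lower. Leaving out wild type replicate 1, 23 of the 66 were called, against 28.9% of all genes. All 5 calls of the 8-array fit were lost when any other single array was left out.

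Among other GDNF family ligands and receptor-like genes, 7 of 8 were tested, 2 were called as higher and 1 as lower. Gdf15, a stress-induced distant member of the TGF-beta superfamily that signals through GFRAL and RET, had the largest change. Its level was -2.43 ± 1.15 (SD, n = 4) in wild type and -0.16 ± 0.46 in VRK1-deficient testes, a rise of 2.27 (SE 0.51, limma adjusted p = 0.0492). Sdc3, a cell surface heparan sulfate proteoglycan that binds GDNF, rose by 0.58 (SE 0.12, limma adjusted p = 0.0473). Sorl1, a sorting receptor that takes up GDNF with GFRA1, had a change of -0.84 (SE 0.19, limma adjusted p = 0.0498). After normexp background correction the Sorl1 call was lost (limma adjusted p = 0.355). Gdf15 (0.0191) and Sdc3 (0.0370) stayed called there. Artn and Pspn, the ligands of GFRA3 and GFRA4, were dim and were not called. Artn was well above background on 3 wild type and 2 VRK1-deficient arrays. Pspn was so on 4 wild type and 0 VRK1-deficient arrays, and thus passed the filter through wild type alone. For both genes no fold is given here. The median of the list was 0.05 and that of all genes 0.04. With wild type replicate 1 left out, again 2 were called as higher and 1 as lower, against 28.9% of all genes called. The changes of Gdf15, Sdc3 and Sorl1 were then 2.75, 0.63 and -0.88.

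Of 35 RET adaptors and downstream kinases, 33 were tested. Grb7, an SH2 adaptor that binds RET, had a change of -0.91 and a limma adjusted p of 0.109. The median of the list, 0.06, was close to that of all genes. With wild type replicate 1 left out, 3 of the 33 were called as higher and 4 as lower, against 28.9% of all genes called.

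Besides the members, 11 of 15 GDNF-responsive genes of spermatogonia were tested with limma and 0 were called, with 6 at an unadjusted p under 0.05 and 0 by the methods' t-test after adjustment. The 2 with the largest changes were Pou3f1 (-0.76, limma adjusted p = 0.0703) and Lhx1 (0.71, adjusted p = 0.128), both transcription factors. Nanos2, an RNA-binding protein that keeps stem cells undifferentiated, had a change of 0.50 (limma adjusted p = 0.0634). Changes were positive for 7 and negative for 4 of these genes, with a median of 0.21. In the fit that omits wild type replicate 1, 3 were called as higher and 2 as lower, against 28.9% of all genes called. With all arrays, 28.8% of all tested probes had an unadjusted p under 0.05 with limma.

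Feedback and ETS genes of the ERK pathway, which report on receptor tyrosine kinase signalling in general, had positive changes in 8 of 8 tested genes. The median was 0.40, against 0.04 over all genes, and 1 of the 8 was called. The shared sign did not hold on each slide alone. Etv4 gave -0.22 on slide 1 and Dusp4 gave -0.21 on slide 2, while the other tested genes were positive on both slides. Etv1, an ETS factor related to Etv5, rose by 0.64 (SE 0.12, limma adjusted p = 0.0445). Dusp6, an ERK phosphatase, had a change of 0.51 (limma adjusted p = 0.153) and Spred1, an inhibitor of the pathway, one of 0.44 (adjusted p = 0.0650). Without wild type replicate 1 the median was 0.48, against 0.07 over all genes. In that fit 5 of the 8 were called, all as higher, against 28.9% of all genes called.

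Of 10 genes for signals known to act on Gdnf expression in somatic cells, 7 were tested and 0 were called with limma, with 3 at an unadjusted p under 0.05 and 0 by the methods' t-test after adjustment. Fshr, the receptor for follicle-stimulating hormone on Sertoli cells, had a change of 1.09 (limma adjusted p = 0.0597) and did not overlap between genotypes. Hey1, a Notch target, had a change of -1.01 (limma adjusted p = 0.0573). The median was 0.28. In the fit that omits wild type replicate 1, 2 were called as higher and 1 as lower, against 28.9% of all genes called. With all arrays, 28.8% of all tested probes had an unadjusted p under 0.05 with limma.

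**Figure D3:**
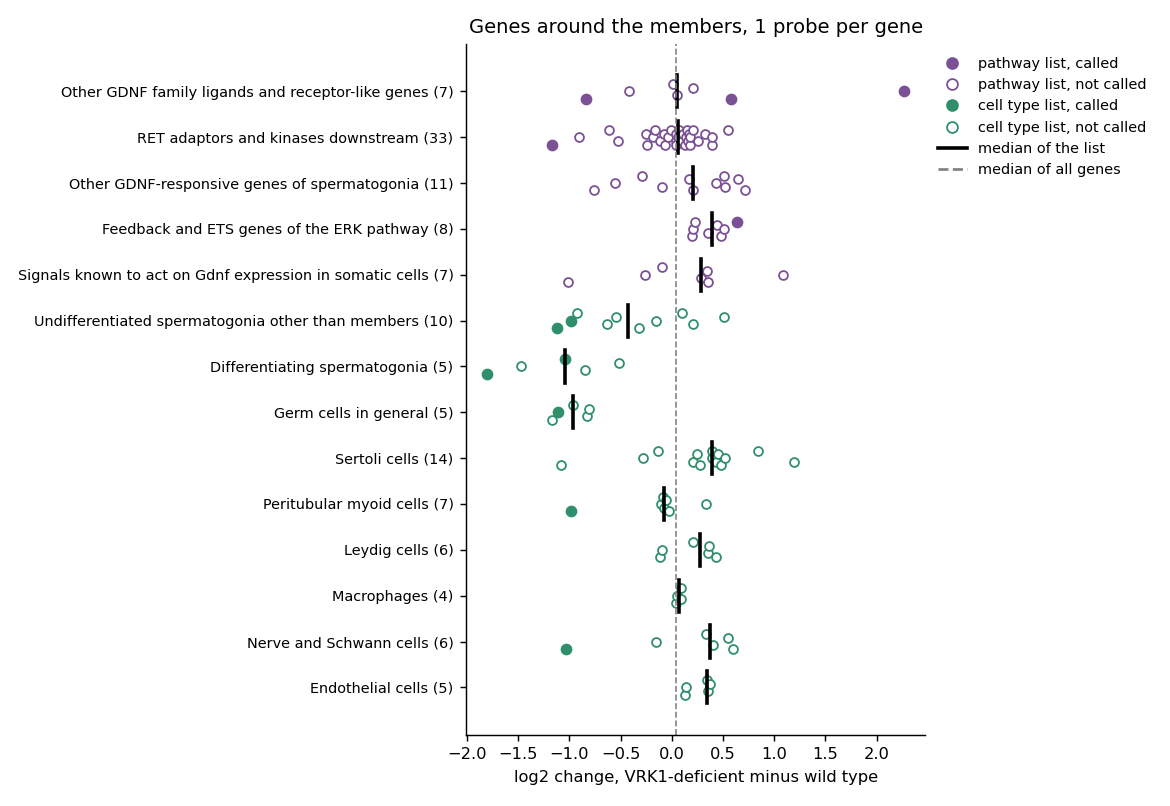
Log2 change (x axis, VRK1-deficient minus wild type) of each tested gene in 5 pathway lists and 9 cell type lists, with the number tested in parentheses; filled points were called with limma, and black bars are list medians. The 8 feedback and ETS genes of the ERK pathway all lie right of 0, with a median of 0.40, and the differentiating spermatogonia and germ cell lists lie left of it, with medians of -1.05 and -0.96.

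The samples were whole testes, so fewer cells of a type and less RNA per cell cannot be told apart. Germ cell markers had lower signals in VRK1-deficient testes. Of the differentiating spermatogonia list, 5 of 5 tested genes had negative changes (median -1.05), and Dmrtb1 and Dnmt3b were called. Their summed signal was 23.4 to 73.4 times the 75th percentile in wild type and 12.5 to 27.6 times in VRK1-deficient arrays. Each sum here and below is weighted towards the brightest probes of its list and does not stand for all of its genes. Of the general germ cell list, 5 of 5 changes were negative (median -0.96), Tdrd1 was called, and the sums were 27.1 to 75.1 and 19.5 to 32.7. Among 10 markers of undifferentiated spermatogonia other than the members, 7 changes were negative (median -0.43), and Sall4 and Lin28a were called as lower. Their sums were 3.18 to 5.35 in wild type and 3.03 to 3.67 in VRK1-deficient testes. Nanos2 and Id4 are in this list and in that of the GDNF-responsive genes, and both had positive changes. Omitting wild type replicate 1, 5 of 5 genes were called as lower in both the differentiating and the general germ cell list. Of the undifferentiated list, 1 was called as higher and 5 as lower. In that fit 28.9% of all genes were called.

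Gfra1, Etv5 and Bcl6b thus had positive changes in samples where the 10 listed markers of undifferentiated spermatogonia had a negative median. These members were set against this list alone. Which cell types of the whole testis made their transcripts was not tested. Relative to the mean of those 10 markers on the same array, the brighter Gfra1 probe stood at -1.40 to -0.62 in wild type and at -0.31 to -0.01 in VRK1-deficient testes. For Etv5 these values were -1.40 to -0.06 and -0.13 to 0.41. For Bcl6b they were -0.11 to 0.88 in wild type and 1.01 to 1.36 in VRK1-deficient testes. The genotypes did not overlap for Gfra1 and Bcl6b, and for Etv5 they did. The probes used here were already separate between genotypes before this step. The list mean itself differed by -0.39 between VRK1-deficient and wild type, which widens the gap. This scale is therefore no separate support. The dimmer Gfra1 probe, which overlapped between genotypes, was not set against the list.

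Gfra3 and Nrtn were also set against the markers of differentiating spermatogonia. Relative to the mean of the 5 markers on the same array, Gfra3 averaged -1.58 ± 0.36 (SD, n = 4) in wild type and -1.72 ± 0.09 in VRK1-deficient testes, a difference of -0.14. For Nrtn, the relative level was -1.15 ± 0.20 and -0.93 ± 0.31, a difference of 0.22. On this relative scale both genotypes overlapped for both genes. Relative to the Sertoli mean, Nrtn stood at -2.96 to -1.26 in wild type and at -3.48 to -2.93 in VRK1-deficient testes, a difference of -1.20. Relative to the mean of 6 nerve and Schwann cell markers, Gfra3 stood at -1.13 to 0.90 and at -1.77 to -0.76, a difference of -1.39. The genotypes overlapped on these scales too, and the changes of Nrtn and Gfra3 alone were -0.92 and -1.28. Whether these cells were the source of either transcript was not tested. The nerve and Schwann cell list, cells known to express Gfra3, had 4 positive and 2 negative changes among 6 tested genes (median 0.37). Sox10, a Schwann cell transcription factor, fell by 1.04 (SE 0.17, limma adjusted p = 0.0407). The list summed to 19.7 to 27.5 in wild type and 24.8 to 27.9 in VRK1-deficient testes, and 3 of its 9 genes were not tested because their probes were too dim.

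The somatic lists were mostly positive. Of 14 Sertoli cell markers, 11 had positive changes (median 0.39), and 0 were called with limma in 8 arrays, with 8 at an unadjusted p under 0.05 and 0 by the methods' t-test after adjustment. Without wild type replicate 1, 9 were called as higher and 1 as lower, against 28.9% of all genes called. With all arrays, 28.8% of all tested probes had an unadjusted p under 0.05 with limma. The summed signal was 254 to 384 in wild type and 339 to 405 in VRK1-deficient testes. Relative to the mean of the Sertoli list on the same array, Gdnf stood at -6.59 to -5.42 in wild type and at -5.29 to -5.17 in VRK1-deficient testes. The genotypes did not overlap on this scale. The mean difference was 0.89, compared with 1.17 before. The part of the Sertoli share in the Gdnf value was not tested.

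Peritubular myoid markers, the other known source of Gdnf, had 6 negative changes among 7 genes (median -0.08). Cnn1, a smooth muscle calponin, fell by 0.99 (SE 0.19, limma adjusted p = 0.0445), and the sums were 143 to 159 and 125 to 160. Leydig cell markers had a median of 0.28 (sums 33.5 to 51.2 and 44.1 to 57.2), endothelial markers one of 0.35 (2.46 to 3.02 and 3.15 to 3.63) and macrophage markers one of 0.07 (2.59 to 3.55 and 3.11 to 3.56), and 0 genes of these lists were called with limma or by the methods' t-test after adjustment, with 2, 1 and 0 at an unadjusted p under 0.05. Relative to the peritubular mean, Gdnf stood at -6.94 to -5.20 in wild type and at -5.41 to -4.67 in VRK1-deficient testes, with overlap. Omitting wild type replicate 1, 1 peritubular gene was called as lower, 2 Leydig and 1 endothelial gene as higher and 0 macrophage genes. In the nerve and Schwann cell list, 4 were then called as higher and 1 as lower. Of all genes, 28.9% were called in that fit. With all arrays, 28.8% of all tested probes had an unadjusted p under 0.05 with limma. Markers of each listed cell type were detected. The part of these cell types in the members' values was not tested.

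**Figure D4:**
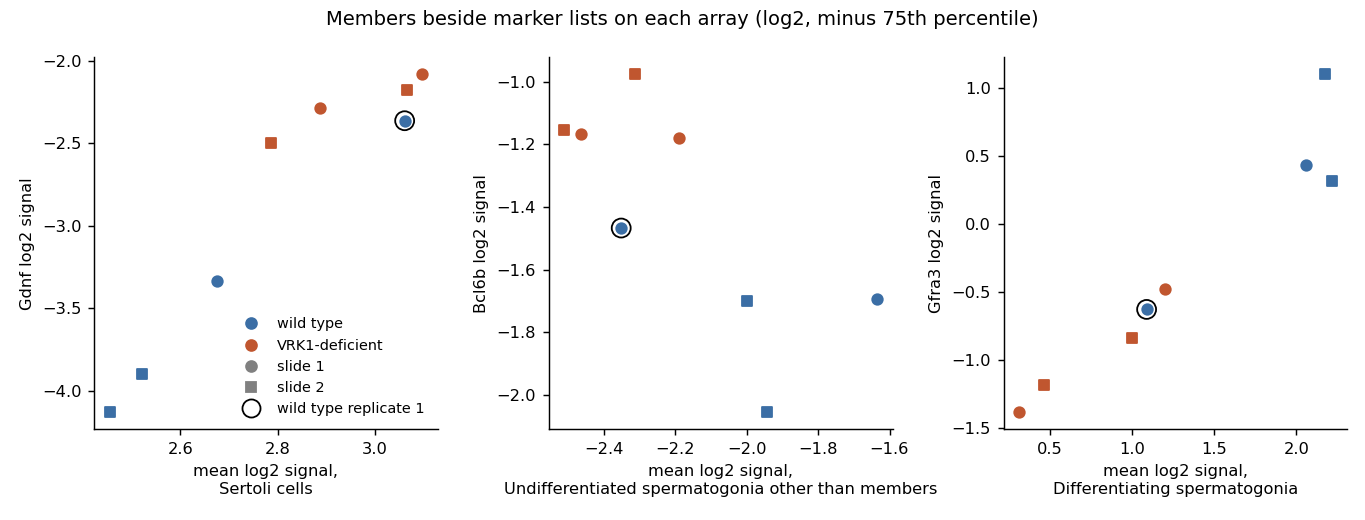
Log2 signal of Gdnf, Bcl6b and Gfra3 (y axes) against the mean log2 signal of a marker list (x axes) on each of the 8 arrays, all relative to the array's 75th percentile. The ringed wild type replicate 1 lies near the mutant arrays in its Sertoli mean (3.06, against 2.79 to 3.097) and its differentiating spermatogonia mean (1.09, against 0.31 to 1.20).

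On wild type replicate 1, the Sertoli mean was 3.06, inside the mutant range of 2.79 to 3.097, and the differentiating spermatogonia mean was 1.09, inside the mutant range of 0.31 to 1.20. The other wild type arrays lay below the mutant range for the Sertoli mean (2.46 to 2.68) and above it for the differentiating spermatogonia mean (2.06 to 2.22). Gdnf and Gfra3 on this array were inside their mutant ranges as well, and for Nrtn, Etv5 (A_51_P323579) and Bcl6b it held the wild type value nearest to the mutant arrays.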

How the data were processed

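The authors labelled testis RNA with Cy3, hybridised it to 1-colour Agilent Whole Genome Mouse arrays and extracted the signals with Feature Extraction (9.5.3.1 per the labels). The deposited values are its linear intensities, background-subtracted and not scaled between arrays, and their value table held the same intensities (0 unequal on each array). For later steps the study used GeneSpring GX and a Student's t-test. How arrays were normalized there is not given in the sources used.

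Control spots and outlier spots (58 to 134 per array) were left out. The intensities were converted to log2, the log2 of the array's 75th percentile was subtracted, and spots of a probe were averaged. A probe counted as well above background on an array when most of its spots were, ties included. Probes so on at least 4 of 8 arrays were tested with limma 3.58.1 in R 4.3.3 and adjusted by Benjamini-Hochberg, with no covariate. Probes were paired with symbols through a RefSeq table by accession (22951), symbol (6659) or synonym (3109), and 8455 kept the name in the files. In lists, a gene is represented by its brightest probe. Python 3.11.15, pandas 2.3.3 and matplotlib 3.10.9 made the tables and figures. On simulated data for this comparison, 148 of 200 changed probes among 26948 were recovered, with 13 false calls. The planted log2 changes were 1 to 2 in size, above those of most member probes. The simulated arrays were independent, with no stray array and no slide effect. The recovery therefore does not give the power for the members on these arrays.

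Members and lists were chosen with earlier results of these data known. All 9 members are named. From each pathway list, called genes (up to 5) and the 2 with the largest change are named, and called genes of the marker lists. Some list genes are counted but their own results are not reported here. Nanos2, Spred1, Etv4, Dusp4, Artn and Pspn were named after their values were seen. Id4 is named because it is shared between lists. Alternatives are given in the closing section. The qRT-PCR and histology of the study were not analysed here.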

Additional observations from a re-analysis of the deposited data

Results flagged for a closer look

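Bcl6b on VRK1-deficient replicate 3 had a log2 signal of -0.98, while the other 3 mutant arrays lay between -1.18 and -1.16. The gap took up 0.879 of the group's whole range, above Dixon's 95% critical value for 4 arrays. It was the 1 such value among 26 groups of 4 arrays (13 member probes in both genotypes), and chance gives about 1 in 20. Without this array the Bcl6b call was lost, as it was without any other array except wild type replicate 1.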

How the results depend on the processing

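Of 223 values of member changes under the alternatives, 182 kept their direction and side of the threshold. Ratios of arithmetic means, which have no p-value, are counted among the 182 by direction alone. Of the rest, 23 passed the threshold newly, 14 no longer passed it and 4 changed sign. All 4 were Gfra4: 0.070 (A_51_P241426) and 0.19 (A_52_P409839) after normexp, and for A_52_P409839 also 0.011 on slide 1 alone and 0.0037 without VRK1-deficient replicate 4. Leaving out each array in turn gave -0.16 to 0.0037 for A_52_P409839. In all 14 cases the call lost was that of Bcl6b. Signals without scaling moved the median change of all probes from 0.04 to -0.14, so member changes were lower by about the same amount. The cause of the other differences was not tested. Quantile normalization also called 1 member.

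The 986 probes called became 17 with no filter on dim probes, 641 with slide as a block, 3 on slide 1 alone, 162 with the methods' t-test (7066 at their own threshold) and 1915 with an intensity trend and robust variances. Leaving out 1 array gave 3 to 7655 probes, the highest without wild type replicate 1. Of the calls, 54.3% were lower with the main scaling and 93.0% without scaling. The count of members called (1 of 7) became 2 without scaling (Nrtn and Gfra3), 4 after normexp (Gdnf, Gfra1, Gfra3 and Nrtn), 2 with the filter on all 8 arrays (Bcl6b and Nrtn), 4 on slide 2 alone (Etv5, Gdnf, Gfra3 and Nrtn) and 3 with trend and robust variances (Bcl6b, Gfra3 and Nrtn). It was 0 with no filter, with slide as a block, on slide 1 alone and with the methods' t-test, by limma except the last. Unadjusted p-values under 0.05 numbered 8, 8, 0 and 7 member probes there. Leaving out 1 array gave 0 to 6 members, with 6 to 8 member probes at an unadjusted p under 0.05. The 5 genes called in the pathway lists became 3 with quantile normalization, 9 after normexp, 8 with the 8-array filter, 1 with slide as a block, 3 on slide 2 alone and 10 with trend and robust variances. They became 0 with no filter and on slide 1 alone (limma) and with the methods' t-test, where 24, 6 and 21 had an unadjusted p under 0.05, and 0 to 23 with 1 array left out. Results without wild type replicate 1 leave 3 wild type arrays, and slide fits have 2 arrays a group.

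Same-numbered arrays had correlated deviations in some pairs only (0.47, 0.07, 0.19 and -0.14), and not every array correlated best with its own number, so the numbers were not read as pairs. A replicate block gave 2275 probes, 5 members (Bcl6b, Etv5, Gdnf, Gfra3 and Nrtn) and 8 pathway genes.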
